A study of Mus musculus with 8 samples.

Results

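The miR-10, miR-99, miR-100 and miR-125 miRNAs were followed in testis small RNA of 4 SD and 4 WD male C57Bl/6 mice. The rule took every listed mature arm with the name of miR-10a, miR-10b, miR-99a, miR-99b, miR-100, miR-125a and miR-125b. The table lists 14 such arms among 576 mature miRNAs, within 730 entries of the miRNA class and 20558 small RNAs in all. The SD mice, M1N, M2N, TN1 and TN2, are labelled as controls, and the paper states a standard chow diet (SD) for its control group. In brackets after a mean, and beside a mean in captions, SD is the standard deviation. The WD mice, M1W, M2W, M3W and M5W, are labelled as experimental animals and were raised on the Western-like diet. The start of that diet is given as 3 weeks of age in the paper and 4 weeks in the labels, and the latter state a high-fat diet for all 8 mice, controls included. All were adult, and the RNA came from whole testis, where fewer cells of a type and less RNA per cell cannot be told apart.

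A mature miRNA is cut from one side (the 5p or the 3p arm) of a hairpin and guides a silencing complex to messenger RNAs, largely through its seed, bases 2 to 8. These families belong to old gene groups. The miR-99/100 and miR-125 genes lie together with let-7 genes, and the miR-10 genes lie inside Hox clusters, which set the positions of body parts in the embryo. The whole set is known for roles in cell growth and differentiation, and miR-10a and miR-10b for expression along the trunk of the embryo together with the Hox genes beside them.

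The 5p arms that carry nearly all the counts, and the 3p arms that could be tested, are printed to show which members share a seed. Capitals mark the seed, all are written 5′ to 3′, and the sequences are those of RefSeq (assembly GRCm38.p6), in which all 14 members had a match.
miR-125b-5p: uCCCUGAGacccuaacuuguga
miR-125a-5p: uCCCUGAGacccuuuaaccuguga
miR-99a-5p: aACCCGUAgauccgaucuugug
miR-100-5p: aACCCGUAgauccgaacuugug
miR-99b-5p: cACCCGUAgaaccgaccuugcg
miR-10b-5p: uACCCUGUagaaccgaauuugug
miR-10a-5p: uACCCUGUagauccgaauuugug
miR-125b-2-3p: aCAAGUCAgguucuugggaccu
miR-99a-3p: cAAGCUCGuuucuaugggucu
miR-99b-3p: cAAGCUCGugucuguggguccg
The 7 5p arms hold 3 seeds, 1 for each of the miR-125, miR-99/100 and miR-10 groups. miR-99a-5p and miR-100-5p differ by 1 base, U16A, and miR-10b-5p and miR-10a-5p by 1 base, A12U, with positions counted from the 5′ end. miR-99b-5p differs from each of miR-99a-5p and miR-100-5p at 4 positions. miR-125b-5p and miR-125a-5p are alike over their first 13 bases. The alignment allowed 2 mismatches, and the sources used here do not say how a read matching several entries was assigned, so levels within the miR-99a/miR-100 and miR-10a/miR-10b pairs may be split wrongly. A pair of entries with the same sequence, let-7a-1-3p and let-7c-2-3p, had equal counts in 5 of 8 mice and differed by at most 1 count in the others. That pair does not show how reads of arms differing by 1 base were assigned.

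On the NCBIM37 assembly, the build called mm9 in the labels, the members of the miR-99/100 and miR-125 families come in pairs on 3 chromosomes, all on the plus strand. miR-100-5p lies on chromosome 9 from 41339520 to 41339541, in an intron of the non-coding gene D230004N17Rik. The first copy of miR-125b-5p lies further along that chromosome, from 41390023 to 41390044, in introns of D230004N17Rik and 2610203C20Rik, and its precursor starts 50422 bases from the end of that of miR-100. miR-99a-5p lies on chromosome 16 from 77599185 to 77599206, and the second copy of miR-125b-5p from 77646524 to 77646545, with 47273 bases between the precursors.

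On chromosome 17, miR-99b-5p lies from 17967158 to 17967179 and miR-125a-5p from 17967781 to 17967804, inside an exon of Ncrna00085, a non-coding gene, with 546 bases between the precursors. The miR-10 genes lie apart, also on the plus strand. miR-10a-5p is on chromosome 11 from 96178500 to 96178522, in an exon of a Hoxb4 transcript, and miR-10b-5p is on chromosome 2 from 74564131 to 74564153, in an intron of Hoxd3 and Hoxd4.

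The tissue label was checked against miRNAs typical of germ cells. Total counts were 2064562 to 3253798 per SD mouse and 2159625 to 3092399 per WD mouse, and the level that 3 counts allow was between 0.933 and 1.39 CPM, which covers counting error only. The 6 miRNAs known from meiotic and haploid germ cells, among them miR-34c-5p, summed to 13492 to 18246 CPM in SD mice and 13361 to 18212 CPM in WD mice. CPM are counts scaled to a common library size with the TMM factor, and a read covers a whole mature miRNA, so CPM were compared between miRNAs without dividing by length. Whether unlike sequences were captured equally was not tested, so orders and shares between miRNAs are those of counts. Of the 14 members, 10 passed the filter on low counts, as did 366 of the mature miRNAs and 418 entries of the class.

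The 5p arms dominated. The members took 7.31% ± 1.21 of the mature miRNA counts of SD mice and 6.51% ± 1.48 of those of WD mice (SD, n = 4 each), and in every mouse 99.4% to 99.8% of their counts were on 5p arms. The share was 8.45% in M1N, 8.26% in M2N and 8.63% in M2W, and between 5.35% and 6.38% in the other mice, so the diet groups overlapped. By mean CPM over the 8 mice the order was miR-125b-5p (3030), miR-99a-5p (1894), miR-10b-5p (928), miR-100-5p (592), miR-125a-5p (573), miR-10a-5p (107) and miR-99b-5p (96.3). miR-125b-5p, the largest member, ranked 10 among the 576 mature miRNAs, and miR-99b-5p ranked 110. Each of miR-125b-5p, miR-99a-5p, miR-10b-5p, miR-125a-5p and miR-99b-5p exceeded the next member in all 8 mice. miR-10a-5p exceeded miR-99b-5p in 7 of 8, while miR-100-5p was above miR-125a-5p in 6 of 8, so the order of these neighbours was not the same in every mouse. Below them lay miR-99a-3p (10.3 CPM), miR-125b-2-3p (6.94) and miR-99b-3p (6.62), and miR-125b-2-3p was above miR-99b-3p in only 4 of 8 mice.

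**Figure D1:**
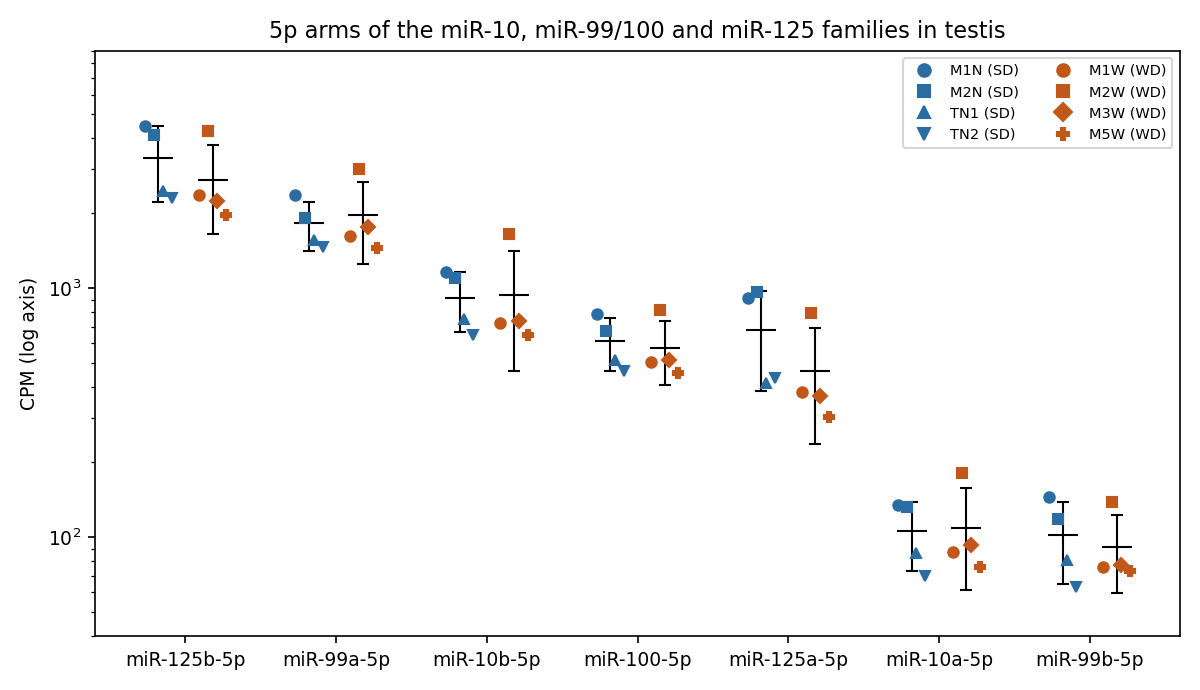
Level of the 7 5p members in each mouse, in CPM on a log axis, with a symbol per mouse and the mean and SD of each diet group. M1N, M2N and M2W are the 3 highest mice for every 5p member, and the diet groups overlap for each.

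The first comparison asked whether the members differed between WD and SD mice. miR-125b-2-3p was the only member to pass the criteria used for miRNAs, an unadjusted p of 0.1 or less with a change of at least 1.5-fold, and it was higher in WD mice. No member was lower by these criteria. In the class, 7.89% of the 418 tested entries were higher and 7.18% lower, so 1 higher and 0 lower of 10 members is near the background. With the p-values of edgeR's test adjusted (Benjamini-Hochberg) over all 16955 small RNAs tested, 0 members passed a limit of 0.05, as did 0% of all the small RNAs, and DESeq2 and limma-voom gave 0 members as well. Without adjustment, 1 of 10 members had a p of 0.05 or less, beside 16.5% of the class. The median log2 fold change was -0.03 over the 10 members and 0.03 over the 418 entries, and it turned on single mice, with -0.34 and -0.10 without M2W and 0.16 and 0.097 without M1N.

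miR-125b-5p, which represses targets in apoptosis and differentiation, had 4488 CPM in M1N, 4137 in M2N, 2451 in TN1 and 2313 in TN2. In WD mice it had 2371 CPM in M1W, 4285 in M2W, 2235 in M3W and 1961 in M5W. M1N, M2N and M2W were high and the other 5 mice were low, so the groups overlapped. The means were 3347 ± 1125 CPM and 2713 ± 1062 CPM (SD, n = 4 each), a log2 fold change of -0.30 (SE 0.27, adjusted p = 0.581 by edgeR's quasi-likelihood test).

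miR-125a-5p, which shares the seed of miR-125b-5p, had the most negative log2 fold change of the 5p arms. Its CPM were 911 in M1N, 965 in M2N, 418 in TN1 and 435 in TN2. In WD mice they were 384 in M1W, 799 in M2W, 368 in M3W and 303 in M5W. Here too M1N, M2N and M2W stood above the other 5 mice. The log2 fold change was -0.56 (SE 0.32, unadjusted p = 0.0999, adjusted p = 0.403 by edgeR), short of the 1.5-fold limit, and an exact permutation test over the 70 assignments of the mice gave p = 0.171 (two-sided). The value depended on single mice. It was -0.95 without M2W, -0.74 without TN1 and -0.72 without TN2, each past the criteria, but -0.34 without M2N and -0.39 without M1N or without M5W. That of miR-125b-5p ran from -0.61 without M2W, past the criteria, to -0.17 without M5W and -0.13 without M1N.

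For miR-99a-5p, a regulator of growth signalling through mTOR, the CPM were 2362 in M1N, 1907 in M2N, 1559 in TN1 and 1462 in TN2, and 1619 in M1W, 3018 in M2W, 1766 in M3W and 1458 in M5W. The groups overlapped, with M2W the highest of all 8 mice. The log2 fold change was 0.11 (SE 0.23, adjusted p = 0.835 by edgeR), and ran from -0.17 without M2W to 0.26 without M1N.

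miR-100-5p, the partner with the same seed, had 787, 676, 515 and 466 CPM in M1N, M2N, TN1 and TN2, and 505, 817, 514 and 457 CPM in M1W, M2W, M3W and M5W. Its log2 fold change was -0.09 (SE 0.22, adjusted p = 0.847 by edgeR). miR-99b-5p, from the same cluster as miR-125a-5p, ranged from 63.0 to 145 CPM in SD mice and from 73.1 to 138 CPM in WD mice, with a log2 fold change of -0.17 (SE 0.26, adjusted p = 0.766 by edgeR). Neither separated the groups.

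The miR-10 pair behaved alike across the mice. miR-10b-5p had 1162, 1096, 754 and 650.3 CPM in M1N, M2N, TN1 and TN2, and 723, 1652, 735 and 651 CPM in M1W, M2W, M3W and M5W. The SD mean was 916 ± 251 CPM and the WD mean 940.3 ± 476 CPM (SD, n = 4 each), a log2 fold change of 0.04 (SE 0.28, adjusted p = 0.954 by edgeR). miR-10a-5p ranged from 69.9 to 135 CPM in SD mice and from 75.9 to 180.2 CPM in WD mice, with a log2 fold change of 0.04 as well (SE 0.27, adjusted p = 0.954 by edgeR). M2W was the highest of all mice for both, and the remaining WD mice lay close to TN1 and TN2.

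The 3p arms had few counts. miR-125b-2-3p, the opposite arm of the second miR-125b gene, had 4.11, 5.74, 5.99 and 4.63 CPM in M1N, M2N, TN1 and TN2, and 7.56, 11.8, 7.83 and 7.78 CPM in M1W, M2W, M3W and M5W. Every WD mouse lay above every SD mouse, which held for 5.50% of the 418 entries of the class, while every WD mouse lay below every SD mouse for 2.87%. The means were 5.12 ± 0.892 and 8.75 ± 2.06 CPM (SD, n = 4 each), a log2 fold change of 0.75 (SE 0.27, unadjusted p = 0.0156, adjusted p = 0.318 by edgeR). The exact permutation test gave p = 0.0286 (two-sided), the smallest that 4 against 4 mice allow. The arm rested on a mean count of 18.9 per mouse, or 151 counts in all, at which counting error alone is 23.0% of a value. Without M2W the log2 fold change was 0.58, just under the fold limit.

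miR-99a-3p had 8.23, 4.15, 13.9 and 11.1 CPM in the SD mice and 8.88, 16.2, 10.1 and 9.64 CPM in the WD mice, in the same order of mice. The groups overlapped, and TN1, not M1N or M2N, was the highest SD mouse. The log2 fold change was 0.26 (SE 0.33, adjusted p = 0.710 by edgeR), and ran from 0.0017 without M2N and 0.040 without M2W to 0.54 without TN1. miR-99b-3p ranged from 2.32 to 12.3 CPM in SD mice and from 3.73 to 8.33 CPM in WD mice, with a log2 fold change of -0.24 (SE 0.40, adjusted p = 0.781 by edgeR). The other listed arms, miR-100-3p, miR-10b-3p, miR-125b-1-3p and miR-125a-3p, had between 0 and 12 counts per mouse and were not tested.

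**Figure D2:**
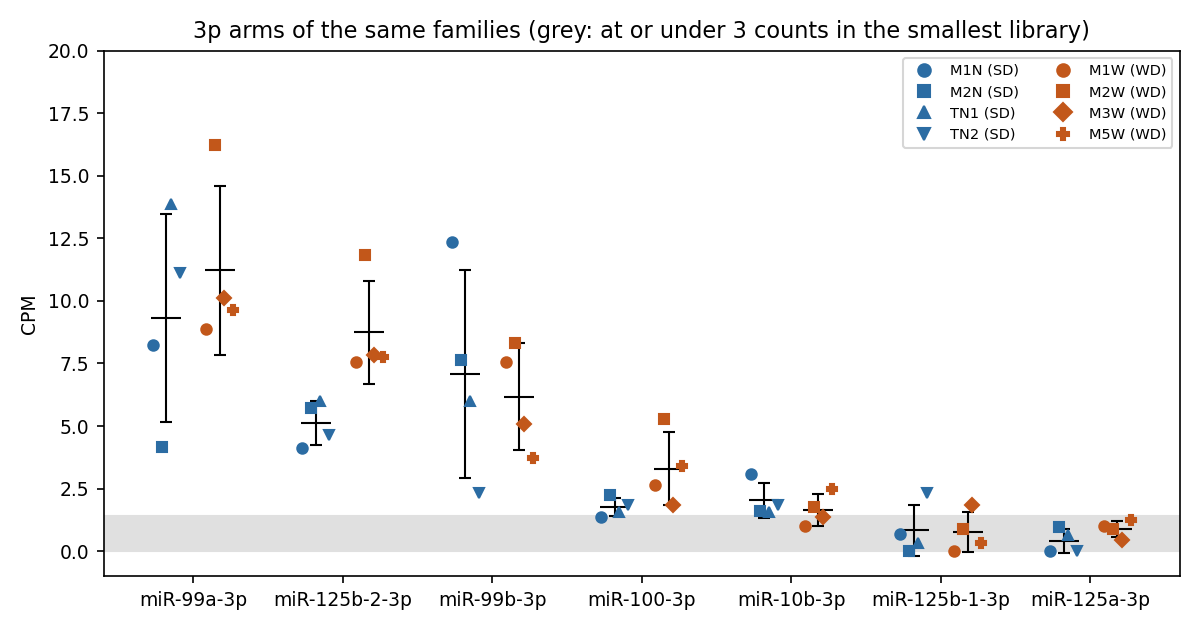
Level of the 7 listed 3p members in each mouse, in CPM, with the mean and SD of each diet group, the level of 3 counts in the smallest library shaded, and the 4 members on the right not tested. For miR-125b-2-3p the 4 WD mice, at 7.56 CPM or more, lie above the 4 SD mice, whereas the groups overlap for miR-99a-3p and miR-99b-3p.

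The SD mice fell into pairs that share a name prefix, M1N with M2N and TN1 with TN2, and the members differed between them. The labels do not say what the prefixes mean, and all WD mice carry M. The mean CPM of miR-125b-5p was 4312 for the M pair and 2382 for the TN pair, and that of miR-125a-5p 938 and 426.5. All 7 5p arms had a higher mean in the M pair, while miR-99a-3p had a lower one (6.19 against 12.5 CPM). The diet comparison of the members was therefore repeated against each pair.

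Against M1N and M2N, 5 of 11 tested members passed the criteria. miR-125b-5p, miR-125a-5p and miR-99b-3p were lower and miR-99a-3p and miR-125b-2-3p higher, in a class where 19.0% of entries were lower and 15.0% higher. The log2 fold change was -0.67 (SE 0.24, adjusted p = 0.0549 by edgeR) for miR-125b-5p and -1.02 (SE 0.26, adjusted p = 0.0105 by edgeR) for miR-125a-5p, the only member to pass after adjustment. In the class 9.71% of entries passed that limit downwards. The median was -0.29 over the members and -0.14 over the class.

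Against TN1 and TN2, 1 of 10 tested members passed the criteria, again miR-125b-2-3p, which was higher, at 0.67 (SE 0.34, unadjusted p = 0.0623 by edgeR), beside 5.20% of the class called higher. miR-125b-5p stood at 0.19 and miR-125a-5p at 0.12 on the log2 scale, the opposite direction to the comparison with M1N and M2N. Of the members tested in both comparisons, all but miR-125b-2-3p changed direction between them. The median over the members was 0.35 and over the class 0.19. Both comparisons used the same WD mice. As no WD mouse carries the prefix TN, diet and prefix cannot be told apart in the comparison with TN1 and TN2, whereas that with M1N and M2N lies within a prefix.

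**Figure D3:**
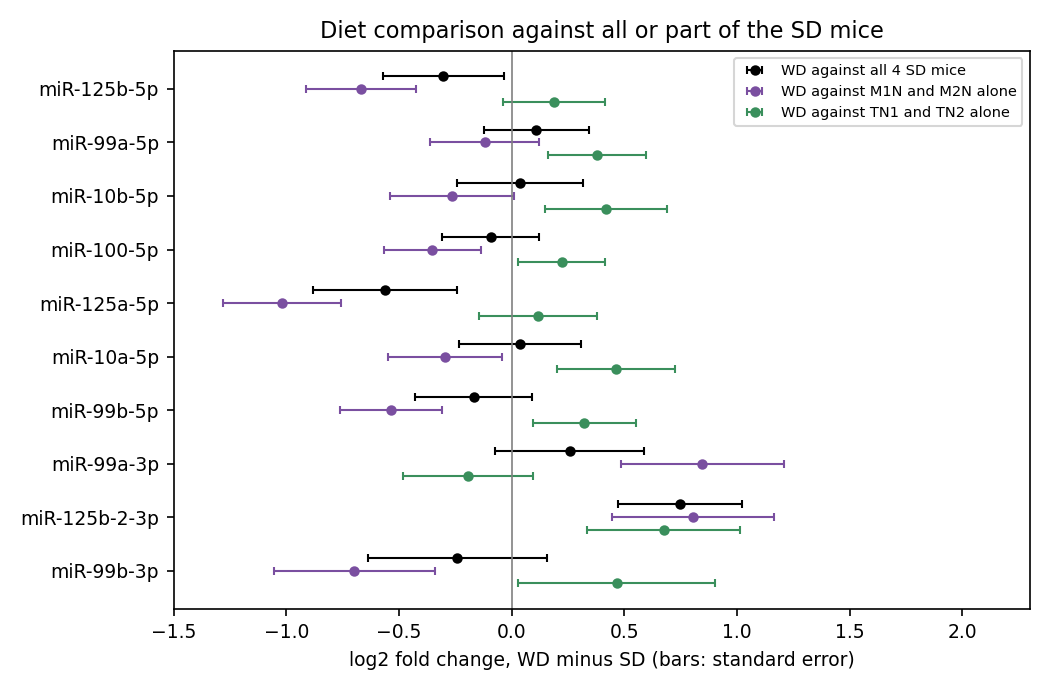
Log2 fold change of WD mice for each tested member, with bars of 1 SE, against all SD mice, against M1N and M2N and against TN1 and TN2. miR-125b-2-3p lies above 0 in all 3 comparisons, and every other member shown changes side between the pairs.

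Since the 5p arms ranked the mice much alike, their ratios within a mouse were compared as well, which removes what is common to both arms. Differences are on the log2 scale, with exact permutation tests over the mice (two-sided) and adjustment over the 4 ratios. The ratio of miR-99a-5p to miR-100-5p was 1.58 ± 0.0640 in SD mice and 1.75 ± 0.0992 in WD mice (SD, n = 4 each), a difference of 0.17 (exact p = 0.0286, adjusted p = 0.0762). Its range was 1.496 to 1.65 in SD mice and 1.67 to 1.88 in WD mice, without overlap, and counting error was 0.0348 to 0.0522 per mouse. The difference was 0.21 against M1N and M2N and 0.13 against TN1 and TN2. As the arms differ by a single base, the assignment of reads bears on this ratio, and its part was not tested.

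The ratio of miR-125a-5p to miR-125b-5p was -2.34 ± 0.191 in SD mice and -2.59 ± 0.116 in WD mice (SD, n = 4 each), a difference of -0.25 (exact p = 0.0571, adjusted p = 0.0762). It was -0.39 against M1N and M2N and -0.11 against TN1 and TN2. The ratio of miR-99b-5p to miR-125a-5p, arms of a shared cluster, was -2.71 ± 0.275 in SD mice and -2.30 ± 0.200 in WD mice (SD, n = 4 each), a difference of 0.41 (exact p = 0.0571, adjusted p = 0.0762), with 0.55 against M1N and M2N and 0.28 against TN1 and TN2. The ratio of miR-10a-5p to miR-10b-5p differed by 0.04 (exact p = 0.429, adjusted p = 0.429), with -3.13 ± 0.0667 in SD mice and -3.08 ± 0.0882 in WD mice (SD, n = 4 each), and by -0.00046 against M1N and M2N and 0.086 against TN1 and TN2. It was 0.012 without M3W, 0.013 without TN2 and 0.081 without M2W. No ratio passed an adjusted p of 0.05.

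**Figure D4:**
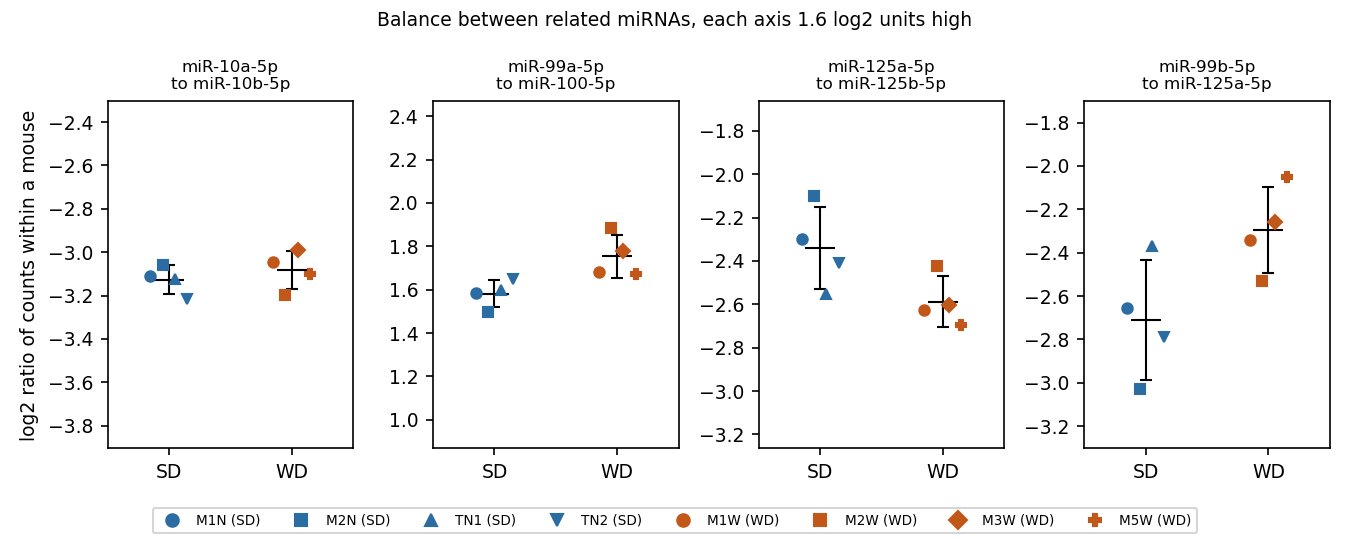
Log2 ratios of paired 5p arms in each mouse, with the mean and SD of each diet group. The ratio of miR-99a-5p to miR-100-5p runs from 1.496 to 1.65 in SD mice and from 1.67 to 1.88 in WD mice, while the other 3 ratios overlap between groups.

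The share of each hairpin's counts on its 5p arm was compared last. It was 99.8% ± 0.0923 in SD mice and 99.6% ± 0.0670 in WD mice for miR-125b (SD, n = 4 each, exact permutation p = 0.0571, adjusted over 6 hairpins 0.171), and 99.7% ± 0.0931 and 99.4% ± 0.166 for miR-100 (exact permutation p = 0.0571, adjusted 0.171). The difference in percentage points was -0.241 against M1N and M2N and -0.0859 against TN1 and TN2 for miR-125b, and -0.313 and -0.214 for miR-100. miR-99b had the largest 3p share of the 6 hairpins, with 93.9% ± 1.85 and 93.5% ± 1.84 of counts on the 5p arm (exact permutation p = 0.743). For miR-125b the 3p arms of both genes were summed, since the 5p arm is the same.

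The order of the mice was shared among the 5p arms, a count chosen after the values were seen. M1N, M2N and M2W were the 3 highest mice for 7 of 7 5p members, for 1 of 3 tested 3p members and for 25.6% of the 356 other mature miRNAs tested. These mice also had the largest shares of their total counts in the miRNA class. Correlations of log2 CPM between 5p members ran from 0.77 to 0.99 over 8 mice, and the members of a mouse share its library and depth. The highest was that of miR-10b-5p with miR-10a-5p, arms that differ by a single base. The mature miRNAs most like the members' mean over the mice, out of 356, were miR-24-3p (r = 0.98), miR-1981-3p (r = 0.97), miR-129-1-3p, miR-29c-3p and miR-188-5p (each r = 0.96), all by Pearson correlation over 8 mice and given as description only.

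The neighbours of the members in the genome were measured too. Of 7 listed neighbour names 6 were in the table and 3 were tested, all let-7 members, the family that marks differentiated cells, and none passed the criteria. Both let-7c-5p and let-7a-5p come from more than one gene, so their counts cannot be credited to the gene beside a member. The arm let-7c-1-3p, from the gene 657 bases from the miR-99a precursor, had a mean of 4 counts per mouse, against 34.6 for let-7c-2-3p from another gene, a sequence that let-7a-1-3p shares. let-7c-5p averaged 796 ± 96.5 CPM in SD mice and 997.5 ± 220 CPM in WD mice (SD, n = 4 each; log2 fold change 0.33, unadjusted p = 0.0947 by edgeR). let-7a-5p and let-7e-5p had log2 fold changes of 0.11 and -0.00. Without M2W the values of let-7c-5p, let-7a-5p and let-7e-5p were 0.19, -0.054 and -0.41, and without M1N 0.41, 0.20 and 0.11. Of 8 names of other miRNAs of the Hox clusters, 3 were in the table, miR-196a-5p, miR-196b-5p and miR-615-3p. The 1 tested, miR-615-3p, had a log2 fold change of -0.22, which did not pass the criteria. That value ran from -0.72 without M2W to 0.19 without M1N, with 0.47 against TN1 and TN2. let-7a-5p, let-7e-5p, miR-196a-5p and miR-615-3p also had M1N, M2N and M2W as their 3 highest mice, and the sum of the 3 Hox-cluster miRNAs was between 8.93 and 14.03 CPM in these and 2.84 to 5.56 CPM in the other mice.

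The summed markers of some other cells of the testis were highest in the same mice. Of the 356 other mature miRNAs tested, the tested markers among them, 25.6% had these as their 3 highest mice. The 2 endothelial miRNAs, miR-126-3p and miR-126-5p, are arms of a single hairpin. They summed to 2099 CPM in M1N, 2058 in M2N and 2438 in M2W, the 3 highest mice, and to between 1248 and 1775 CPM in the other 5. Each of the 2 had these mice as its highest. The sum of the 5 white blood cell miRNAs was 509.6 CPM in M1N, 405 in M2N and 449 in M2W, against 206 to 273 CPM in the rest. Of the 5, only miR-223-3p and miR-150-5p had these as their 3 highest mice, and miR-142-3p (10.1 CPM in M1N and M2N, 16.1 in TN1 and TN2) and miR-155-5p (2.45 and 4.12 CPM) had a lower mean in M1N and M2N. The sum of the 6 smooth muscle and stroma miRNAs was 6926 CPM in M2W, 5066 in M2N and 4931 in M1N, and from 3626 to 4797 CPM in the other mice. It was mostly miR-145-5p, which with miR-214-3p had these as its 3 highest mice, while miR-143-3p averaged 231 CPM in M1N and M2N and 379 in TN1 and TN2. Every marker in the table had counts in both diet groups.

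The other cell type sums did not have these as the 3 highest mice, though 1 of 6 germ cell markers, miR-34b-3p, and 1 of 2 Sertoli cell and gonad miRNAs, miR-202-3p, did. Summed germ cell markers were highest in M1N and M3W. Red blood cell markers, with 3 of 5 names in the table (miR-451 and miR-451a both counted as names), ran from 40.2 to 151 CPM in SD mice. In WD mice they ran from 76.5 to 138 CPM. The 2 Sertoli cell and gonad miRNAs ran from 3609 to 4193 CPM in SD mice and from 4187 to 7021 CPM in WD mice, with M2W the highest. By the criteria miR-142-3p of the white blood cell list was higher and miR-150-5p of that list lower in WD mice, miR-449a-5p of the germ cell list was lower, and no other marker passed. These calls depended on single mice and on the method. Without M1N the log2 fold changes were 0.38, -0.33 and -0.33, none past the criteria. miR-142-3p also missed them without M2W or M3W, miR-150-5p without M2N, M1W, M3W or M5W, and miR-449a-5p without M2N or M5W. Against TN1 and TN2 the values were 0.30, 0.15 and -0.06, and none passed. With all 8 mice, miR-142-3p missed the criteria with TMM within the class (0.58), miR-150-5p by limma-voom and with column totals (-0.62 and -0.56), and miR-449a-5p by limma-voom, with column totals and with TMM within the class (-0.54, -0.54 and -0.57). The part of these cells in the members' levels was not tested.

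**Figure D5:**
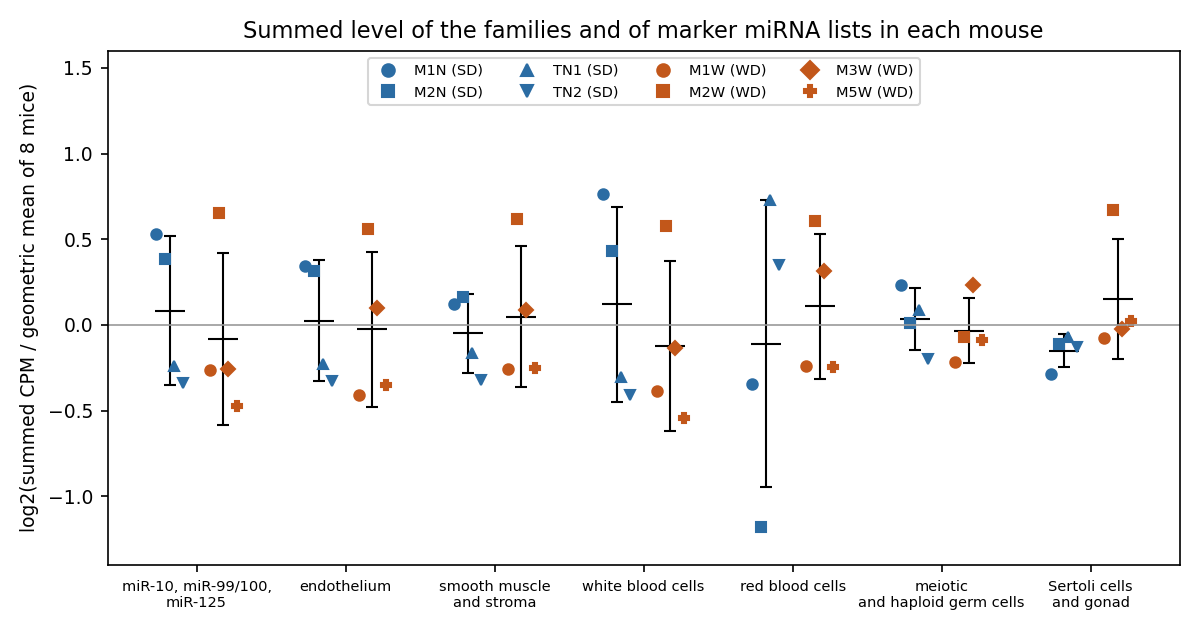
Summed CPM of the members and of each list of cell type markers in each mouse, as log2 of the ratio to the geometric mean of the 8 mice, with the mean and SD of each diet group. Endothelial, smooth muscle and white blood cell sums, the last 2 carried by some of their markers, are highest in M1N, M2N and M2W, the mice with the highest 5p members, and germ cell sums are not.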

How the data were processed

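Small RNA of whole testis from 4 SD and 4 WD mice was sequenced by SOLiD. The authors cut reads at the adaptor, or to 31 bases without one, mapped them to mm9 (Bowtie, 2 mismatches), annotated them and deposited raw counts per small RNA, not normalised. The submitters' notes also name DESeq, without its role. Versions, and how reads with more than one match were counted, are not given in the sources used here. The labels call the samples of a group individuals.

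These deposited counts entered edgeR 4.0.16 in R 4.3.3 (TMM, column totals as library sizes, filterByExpr with a minimum count of 10 and minimum total of 15, quasi-likelihood test, two-sided, diet as the only term), adjusted by Benjamini-Hochberg over all 16955 small RNAs tested. SEs come from F and are approximate. The criteria for miRNAs were p at or under 0.1, unadjusted, with at least a 1.5-fold change. Single values and ratios used exact permutation over 70 assignments. DESeq2 1.42.0, limma 3.58.1, other scalings, filters and thresholds, each pair of SD mice, a replicate block and each mouse left out served as alternatives. The fit was tested on simulated data. Figures used matplotlib 3.10.9. All tested members were named, with the 5 miRNAs most like their mean. Members and lists were chosen with earlier results of these data known. Positions are from NCBIM37 with GENCODE M1.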

Additional observations from a re-analysis of the deposited data

Results flagged for a closer look

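M2W stood far above the other 3 WD mice for 6 members. The measure is the gap to the nearest mouse divided by the range of the group, set against Dixon's critical value for 4 mice, and chance flags about 1 in 20 groups. It flagged 6 of 28 groups, which are not independent, since the 5p members ranked the mice much alike. miR-10b-5p had 1652 CPM in M2W against 651 to 735 CPM in the others (0.916). miR-100-5p had 817 against 457 to 514 CPM (0.841), and miR-125a-5p 799 against 303 to 384 CPM (0.837). miR-10a-5p had 180.2 against 75.9 to 92.6 CPM (0.840), and miR-99b-5p 138 against 73.1 to 77.0 CPM (0.941). miR-125b-2-3p had 11.8 against 7.56 to 7.83 CPM (0.936).

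M2W was also the highest WD mouse in the summed endothelial, white blood cell, smooth muscle, Sertoli cell and red blood cell lists, the let-7 neighbours and the other miRNAs of the Hox clusters, that is in every list but the germ cell markers. Its total count was 2290920, within the range of the other mice. The miRNA class took 290750 of these counts, the largest share of any mouse. M1N, with 348536 of 3248708, and M2N, with 346281 of 3253798, came next. M3W followed, with 224521 of 2159625. CPM were scaled over all small RNAs, not within the class. The part of the lists, the total count or this share in the members' levels was not tested.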

How the results depend on the processing

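Against 1 member by the criteria (15.1% of the class passed them in either direction), 2 were called with no filter (miR-100-3p, at 0.89, was added), 2 with no fold change threshold, 5 against M1N and M2N, and 1 to 2 with each mouse left out. The class had 16.6%, 29.2% and 34.0% called in the first 3 of these settings, and up to 22.9% with a mouse left out. With M2W left out 2 were lower, miR-125b-5p at -0.61 and miR-125a-5p at -0.95, and miR-125b-2-3p fell to 0.58, under the fold change limit, and with TN1 or TN2 left out miR-125a-5p was added at -0.74 and -0.72. Members under an adjusted p of 0.05 numbered 1 against M1N and M2N and 0 otherwise. In the M1 and M2 mice alone 3 of 10 were called with the replicate block and 3 without it, beside 27.9% and 28.1% of the class. The deviations of same-numbered mice correlated at -0.08 (M1N and M1W) and 0.28 (M2N and M2W). Those of unlike numbers correlated at 0.31 (M1N and M2W) and -0.08 (M2N and M1W). These are different animals, and so few values cannot decide whether the numbers pair them.

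Of 209 alternative values over 10 members 172 kept both direction and call, 12 kept the direction and passed the criteria anew, 1 kept it and no longer passed, and 24 reversed, in 9 members. Of 27 tested miRNAs of the lists 17 reversed under some alternative, in 56 of 564 values. miR-125b-2-3p kept its direction in all 22 settings. Against TN1 and TN2 the log2 fold change was 0.19 for miR-125b-5p, 0.22 for miR-100-5p, 0.12 for miR-125a-5p, 0.32 for miR-99b-5p, -0.19 for miR-99a-3p and 0.47 for miR-99b-3p. Against M1N and M2N it was -0.12 for miR-99a-5p, -0.26 for miR-10b-5p and -0.29 for miR-10a-5p. With the replicate block it was -0.043 for miR-10b-5p and -0.077 for miR-10a-5p. miR-10b-5p was at -0.032 by limma-voom and -0.0022 with TMM within the class. With each mouse left out the ranges were -0.61 to -0.13 (miR-125b-5p), -0.95 to -0.34 (miR-125a-5p), 0.0017 to 0.54 (miR-99a-3p), -0.17 to 0.26 (miR-99a-5p), -0.38 to 0.19 (miR-10b-5p), -0.31 to 0.053 (miR-100-5p), -0.31 to 0.19 (miR-10a-5p), -0.44 to 0.045 (miR-99b-5p) and -0.49 to 0.14 (miR-99b-3p). The ratio of miR-10a-5p to miR-10b-5p was -0.00046 against M1N and M2N. The 5p share difference over all mice, in percentage points, was 0.0229 for miR-10b, -0.0270 for miR-99a and -0.363 for miR-99b. Against M1N and M2N it was -0.295 for miR-99a and 0.514 for miR-99b, and against TN1 and TN2 0.241 and -1.24. With each mouse left out it ran from -0.00928 to 0.0823 (miR-10b), -0.137 to 0.0840 (miR-99a) and -0.952 to 0.516 (miR-99b). The causes were not tested. Column totals moved the median of the class from 0.03 to 0.10. Counting error was 19.0% for miR-99a-3p, 23.0% for miR-125b-2-3p and 23.2% for miR-99b-3p, beside a spread between SD mice of 44.5%, 17.4% and 58.8%.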
